A study of Mus musculus with 8 samples.

Results

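The cells described here are neutrophils of mouse skin wounds with many transcripts of the granule protein genes Ngp, Lcn2 and Mmp8. They were chosen by counts alone. Barcodes were kept if more than 200 nuclear genes were detected and less than 20% of their UMIs (unique molecular identifiers, each standing for 1 captured transcript) were mitochondrial, and a neutrophil had at least 40 UMIs of S100a8 and S100a9 in 10000, at least 1 UMI of the G-CSF receptor gene Csf3r and at most 2 UMIs of the monocyte and macrophage genes Csf1r, Ms4a7, C1qa and Fn1 together. Of 35158 cells, 7670 passed as neutrophils, and the 4283 with at least 10 UMIs of Ngp, Lcn2 and Mmp8 together in 10000 are called granule-high neutrophils. The other 3387 are called granule-low. All differences between these classes in the 3 gate genes follow from the selection and are given as a description.

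Male C57BL/6J mice received streptozotocin (STZ, a toxin of the insulin-producing beta cells) at 120 mg/kg when 4 weeks old and were taken as diabetic at a blood glucose of 16.5 mmol/L or more, and control mice were not made diabetic. A full-thickness wound 5 mm in diameter was made on the back of every mouse, and CD45+ (leukocyte) cells were sorted from wounds on days 1, 3, 5 and 7. Each of the 8 libraries pooled 5 mice, with 1 library for each treatment and day, so animals cannot be told apart and the spread between libraries is also a spread between days. The libraries held 19236522 to 33842509 UMIs and 3266 to 5436 cells.

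Neutrophils mature in the bone marrow, where early precursors make the proteins of the primary granules, such as myeloperoxidase and elastase, and later ones those of the secondary granules, such as lactoferrin and the cathelicidin, under the transcription factor C/EBP epsilon. Ngp (neutrophilic granule protein), Lcn2 (lipocalin 2, which withholds iron from bacteria) and Mmp8 (neutrophil collagenase) belong to the secondary and later stages. In mature cells, granule proteins remain stored while most of their transcripts decline, although Lcn2 is also induced in inflamed tissue.

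The starts of the 3 gate genes are shown because these genes define the cells. RefSeq promoters of GRCm38.p6 run from 250 bases before to 50 bases after the start of a gene, and 5 of the 6 marker genes had one. The C/EBP letters TTGCNNAA were searched on both strands and are in capitals below. They stand in the promoters of Ngp (2 matches), Lcn2, Mmp8 and Retnlg (1 match each) and in 10.8% of all 32851 promoters. The PU.1 letters GAGGAAG were found in Lcn2 and Mmp8 and in 13.6% of all promoters, and overlap none of the C/EBP matches. A match of letters is not a binding site.
Ngp, chr9:110419558-110419857, plus strand: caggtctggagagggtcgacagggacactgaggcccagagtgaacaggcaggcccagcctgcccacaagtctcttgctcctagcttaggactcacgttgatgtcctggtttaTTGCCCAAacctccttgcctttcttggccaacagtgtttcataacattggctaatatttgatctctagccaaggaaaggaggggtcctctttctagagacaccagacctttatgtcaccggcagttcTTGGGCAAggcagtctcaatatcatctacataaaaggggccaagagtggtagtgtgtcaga
Lcn2, chr2:32387690-32387989, minus strand: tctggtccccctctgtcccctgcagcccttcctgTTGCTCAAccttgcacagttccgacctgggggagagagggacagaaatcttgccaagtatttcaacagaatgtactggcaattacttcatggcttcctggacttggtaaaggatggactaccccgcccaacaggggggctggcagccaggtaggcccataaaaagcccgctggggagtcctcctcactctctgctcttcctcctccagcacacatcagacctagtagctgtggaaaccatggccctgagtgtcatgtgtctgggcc
Mmp8, chr9:7558179-7558478, plus strand: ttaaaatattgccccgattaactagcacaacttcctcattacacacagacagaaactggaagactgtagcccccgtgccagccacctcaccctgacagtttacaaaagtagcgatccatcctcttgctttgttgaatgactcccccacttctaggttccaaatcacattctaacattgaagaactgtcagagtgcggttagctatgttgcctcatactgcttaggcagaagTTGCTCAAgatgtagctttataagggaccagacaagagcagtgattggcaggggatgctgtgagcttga

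Lcn2 carried most of the selection. It had a UMI in 4067 of the 4283 granule-high cells (exact binomial 95% interval 94.3 to 95.6%) and gave 71.8% of the gate UMIs. In T cells, which should lack it, Lcn2 was at 377, 129, 80.4 and 94.7 CPM on days 1, 3, 5 and 7 in diabetic libraries. In T cells of control libraries it was at 233, 19.6, 7.35 and 35.1 CPM. This background was thus higher in the diabetic library on every day, and its part in the shares and Lcn2 levels below was not tested. The granule rate of 10 was reached by 3.96% of T cells on diabetic day 1 (4 of 101), 8.33% on control day 1 (8 of 96) and 0 to 3.17% in the other libraries. Mmp8 had a UMI in 48.2% of granule-high cells (2064 cells) and Ngp in 14.9% (638 cells). Lcn2 was the only gate gene seen in 2069 cells, Lcn2 and Mmp8 were seen together in 1379, and all 3 genes in 478. The call rested on 1 UMI in 56 cells and on 3 or more in 4033. The 267 cells just inside the threshold, with a rate of 10 to 12, had 845 CPM (the count of a gene scaled to the summed UMIs of the cells) of Lcn2 and 2106 CPM of Retnlg, and the 305 cells just outside, at 8 to 10, had 688 and 2032 CPM.

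The precursor genes Mpo, Elane, Ctsg, Ms4a3 and Fcnb were at or near 0, so the cells are named here by their genes and not as an immature stage. Whether a part of them is immature was not tested, and those with an Ngp UMI are described below. Summed over all granule-high cells, there were 3 UMIs of Mpo (myeloperoxidase), 2 of Elane (elastase), 1 of Ctsg (cathepsin G), 0 of Ms4a3, 22 of Gfi1 and 27 of Cebpe, which encodes C/EBP epsilon. The secondary granule genes Camp (cathelicidin) and Ltf (lactoferrin) gave 86 and 241 UMIs, and Fcnb (ficolin B, of early precursors) gave 2. The proliferation genes Mki67 and Top2a were at 17.0 to 65.6 and 0 to 15.0 CPM over the 8 libraries. Genes of mature neutrophils were high: Cxcr2, the receptor for CXC chemokines, was at 580 to 1556 CPM in granule-high and 637 to 1666 CPM in granule-low cells, and Il1b was at 10582 to 12869 CPM in granule-high cells.

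The 6 markers did not keep a common level over time. Lcn2 in granule-high cells was at 6852, 3022, 3435 and 3534 CPM on days 1, 3, 5 and 7 in diabetic libraries and at 4092, 2016, 2677 and 2124 CPM in control libraries. Mmp8 was at 1941, 1267, 428 and 829 CPM in diabetic and 605, 578, 839 and 957 CPM in control libraries. Ngp was at 1811, 456, 13.9 and 14.7 CPM in diabetic and at 112, 23.1, 29.2 and 13.2 CPM in control libraries. Lcn2 was thus higher in the diabetic library on every day, whereas Mmp8 was higher on days 1 and 3 and lower on days 5 and 7. Ngp was higher on days 1 and 3, and its 4 to 20 UMIs in each library of days 5 and 7 give no direction. Retnlg, a resistin-like protein of neutrophils, was at 11944, 6659, 1101 and 1285 CPM in diabetic and 7204, 3708, 1597 and 765 CPM in control libraries. Wfdc21, a small whey acidic protein, was at 2544, 1779, 555 and 601 CPM in diabetic and 1426, 812, 664 and 432 CPM in control libraries. Cd177, a surface protein of a subset of neutrophils, was at 529, 130, 30.5 and 12.6 CPM in diabetic and 84.2, 44.1, 14.6 and 26.3 CPM in control libraries. The 3 markers outside the gate were lower on days 5 and 7 than on days 1 and 3 in each treatment.

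**Figure D1:**
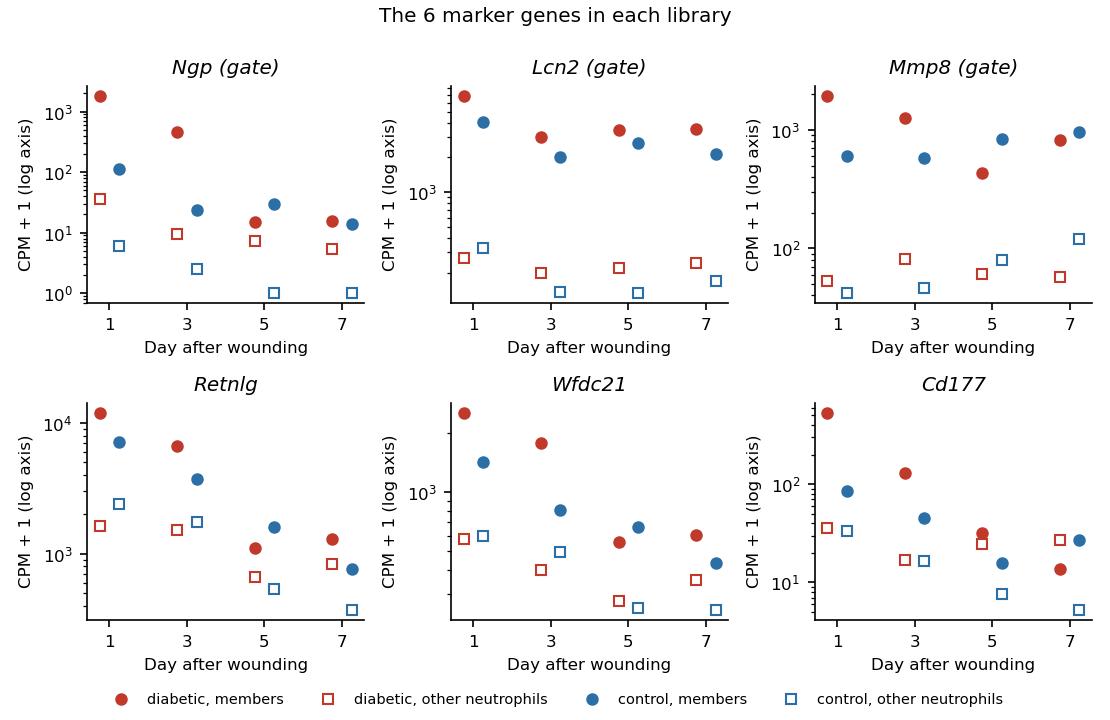
Level of the 6 marker genes (CPM + 1, log axis) by day after wounding in granule-high cells (filled circles, "members") and granule-low cells (open squares) of the 8 libraries, diabetic in red and control in blue, with no error bar because each point is 1 library. Ngp of granule-high cells reaches 1811 CPM on diabetic day 1 and lies between 13.2 and 29.2 CPM in every day 5 and day 7 library.

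The first comparison asked whether diabetic wounds held more granule-high cells. Among neutrophils, 72.3%, 53.4%, 48.2% and 65.4% were granule-high on days 1, 3, 5 and 7 in diabetic libraries and 69.1%, 30.2%, 44.2% and 52.5% in control libraries. The share was higher in the diabetic library on 4 of 4 days, by 10.8 ± 9.34 percentage points (SD, n = 4 days). The two-sided exact permutation test over days gave p = 0.13, the smallest value that 4 days allow. Within a day, the difference of 23.2 points on day 3 (95% interval from counting error, 19.6 to 26.7) and of 12.9 points on day 7 (5.74 to 19.7) exceeded counting error, whereas the intervals of day 1 (-0.0558 to 6.41) and day 5 (-5.20 to 12.8) included 0. With no UMI of the monocyte and macrophage genes allowed, the difference was 20.3 points on day 3 (15.1 to 25.3) and 3.52 points on day 7, with an interval of -9.10 to 16.0 that includes 0. With Ngp and Mmp8 alone as the gate, the difference was 13.6 and 12.3 points on days 1 and 3 and -5.87 (interval -13.1 to -0.578) and -0.545 points on days 5 and 7, with a mean of 4.88 points and an exact p of 0.5.

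Out of all cells, granule-high neutrophils made up 22.3%, 14.4%, 11% and 5.49% in diabetic and 24.5%, 8.32%, 1.75% and 5.18% in control libraries. The share was lower on day 7 than on day 1 in both treatments. It was higher in the diabetic library on 3 of 4 days, by 3.35 ± 5.24 points (SD, n = 4 days; two-sided exact permutation p = 0.375). The widest gap was on day 5, at 9.23 points, where the control library held 129 neutrophils and 57 granule-high cells. These shares also depend on how many other leukocytes were sorted.

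**Figure D2:**
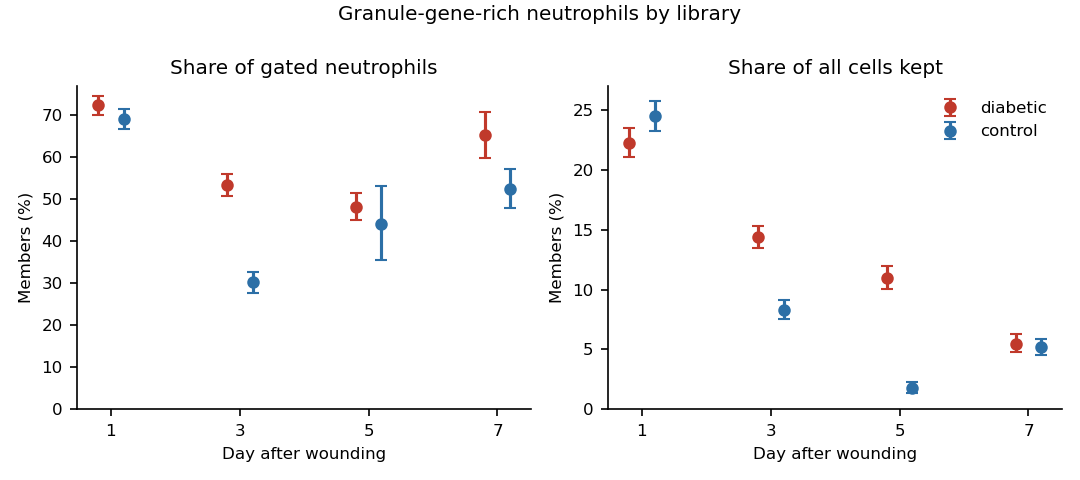
Share of granule-high cells ("members") among gated neutrophils (left) and among all cells kept (right), in percent, by day after wounding, with diabetic libraries in red and control libraries in blue; points are single libraries and bars are exact binomial 95% intervals, which cover counting error only. The diabetic point lies above the control point on all 4 days on the left, by 23.2 points on day 3.

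Ngp was most frequent on diabetic day 1, followed by diabetic day 3 and control day 1, whose intervals overlapped. A UMI of Ngp was found in 391 of 1467 neutrophils of diabetic day 1 (26.7%, exact binomial interval 24.4 to 29.0%), in 153 of 1467 of diabetic day 3 (10.4%, 8.91 to 12.1%) and in 120 of 1565 of control day 1 (7.67%, 6.4 to 9.10%). In the other 5 libraries the share was 0.755 to 1.96%. The 10 richest cells of diabetic day 1 held 21.2% of its Ngp UMIs, up to 221 UMIs in a cell, and without them Ngp was still at 1119 CPM over its neutrophils.

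T cells, which should lack Ngp, show what free transcripts and mixed barcodes can add. Of the 101 T cells of diabetic day 1, 15 had an Ngp UMI (14.9%, interval 8.56 to 23.3%), and 1 of them held 161. Median depths were 2664 UMIs in neutrophils and 3830 in these T cells. With every cell thinned to 1000 UMIs, Ngp remained in 18.6% of neutrophils (260 of 1395; 16.6 to 20.8%) and 4.04% of T cells (4 of 99; 1.11 to 10.0%) of diabetic day 1. On control day 1 the thinned shares were 4.28% (3.32 to 5.43%) and 1.04% (0.0264 to 5.67%), and on diabetic day 3 they were 7.16% (5.87 to 8.63%) and 0% (up to 2.91%). On days 5 and 7, and on control day 3, the thinned shares were 0 to 0.82% in neutrophils and 0 to 0.858% in T cells with overlapping intervals, and are read as background. The thinned intervals of control day 1 overlapped too, but those at full depth did not. An Ngp UMI was found in 1 of 96 T cells of control day 1 (1.04%, 0.0264 to 5.67%), which held 12. The full-depth interval in its neutrophils was 6.4 to 9.10%. Median depths were 3505 UMIs in these T cells and 2812 in the neutrophils. Thinning left out 0 to 72 neutrophils of a library.

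Granule-high cells with an Ngp UMI differed from those without in genes outside the gate. On diabetic day 1, Cd177 was at 1082 CPM in the 360 Ngp-positive and 83.2 CPM in the 701 Ngp-negative cells (ratio 13, 95% interval from counting error 11 to 15.5). Retnlg was at 20282 against 5220 CPM, Ifitm6, an interferon-induced transmembrane protein, at 2643 against 539 CPM and Chil3, the chitinase-like protein Ym1, at 1354 against 236 CPM. Camp and Ltf were at 31.0 against 6.52 CPM and 82.2 against 8.70 CPM on that day. On diabetic day 3 and control day 1 they had at most 2 UMIs in the Ngp-positive cells and intervals that include no difference. The chemokine genes Ccl3 and Ccl4 were lower, at 0.68 and 0.58 times the level of Ngp-negative cells. On diabetic day 3, with 140 Ngp-positive and 643 Ngp-negative cells, Cd177 was 5.25 times (4.08 to 6.79), Retnlg 3.25 times and Chil3 1.44 times (1.29 to 1.61) as high in the Ngp-positive cells. On control day 1 the ratios were smaller: Cd177 was 2.39 times as high in the 114 Ngp-positive cells (1.80 to 3.15), and Chil3 was 1.04 times as high, with an interval of 0.79 to 1.35 that includes no difference. Because Ngp was part of the gate and cells of 1 library are not replicates, these ratios carry no test.

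Levels also differed along the granule rate itself. From cells with no gate UMI to the 467 cells with a rate of 100 or more, Retnlg went from 1136 to 20233 CPM, Wfdc21 from 378 to 3973 CPM, Cd177 from 16.6 to 917 CPM and Chil3 from 111 to 1273 CPM. Of these 467 cells, 81.4% came from diabetic and 79.0% from day 1 libraries, against 44.9% and 21.0% of the 1920 cells with no gate UMI, and Ngp reached 3607 CPM in them. All gated neutrophils numbered 1467, 1467, 953 and 306 on days 1, 3, 5 and 7 in diabetic and 1565, 1324, 129 and 459 in control libraries. The order along the granule rate was not even. Between the bands just outside and just inside the threshold, Wfdc21 went from 601 to 528 CPM and Cd177 from 40.8 to 7.46 CPM. Il1b did not follow this order, which is a description of pooled cells whose mix of libraries changes from band to band.

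**Figure D3:**
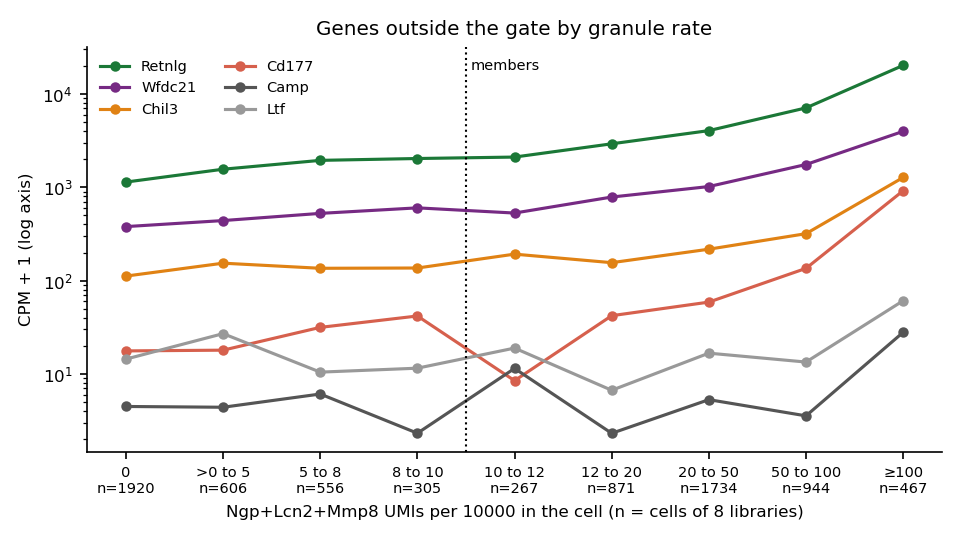
Level of 6 genes outside the gate (CPM + 1, log axis) in gated neutrophils of all 8 libraries, grouped by the summed rate of Ngp, Lcn2 and Mmp8 in 10000 UMIs, with the number of cells under each band and a dotted line at the selection threshold of 10. Retnlg, Wfdc21, Chil3 and Cd177 are highest in the last band, and Camp and Ltf stay at or under 59.8 CPM.

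The next comparison asked which genes were particular in level to granule-high cells within each library. For 942 genes outside the gate with at least 50 UMIs in every library, the log2 ratio of granule-high to granule-low cells was taken with 10 CPM added. None was 2-fold higher (0% of genes) and none 2-fold lower (0%) in all 8 libraries. The limit of 50 UMIs, which the small control day 5 library sets, left out Cd177 and Chil3, and within diabetic day 1 the log2 ratio reached 3.58 for Cd177, 2.86 for Retnlg and 2.13 for Wfdc21. Higher in all 8 libraries were 55 genes (5.84%), and lower in all 8 were 86 genes (9.13%). The cells were selected on their counts, and these ratios carry no test.

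The higher genes with the largest smallest ratio were led by Wfdc21 (median log2 ratio 1.11, lowest library 0.70) and Retnlg (1.32 and 0.62), both markers given with the set. They were followed by Prdx5, a peroxiredoxin of the antioxidant defence (0.38 and 0.27), Pygl, the glycogen phosphorylase that releases glucose units from glycogen (0.46 and 0.26), Dgat2, which makes triglycerides (0.60 and 0.25), and Fpr1, the receptor for bacterial formyl peptides (0.61 and 0.24). Stx11, Prkd3, Mcemp1 and Rdh12 completed the 10, with medians of 0.36 to 0.45. The lower genes were led by Itgax, the integrin chain CD11c (median -0.73, library nearest 0 -0.39), and Ifrd1 (-0.40 and -0.32), and also held Fnip1, Tcirg1, Jmjd1c, Gna13, Gla, Rhob and Atf3, with medians of -0.43 to -0.31.

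Of the gene lists, 6 of 7 NADPH oxidase genes, the complex that makes superoxide, had a positive median ratio (median of the list 0.20), against -0.04 over all 942 genes. All 10 measured alarmin, stefin and small secreted genes were positive (median 0.19), as were 7 of 8 secondary granule genes (0.20). Of 7 measured interferon-stimulated genes 1 was positive (median -0.24), of 14 cytokine and chemokine genes 5 (-0.16), and of 15 receptor genes 9 (0.02). Markers of other cells leaned lower: none of 5 monocyte and macrophage markers (median -0.15) and none of 4 dendritic cell markers (-0.21) was positive. The part of such cells in the ratios was not tested.

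The main test asked which genes differed between diabetic and control granule-high cells over the 4 days. UMIs were summed per library and compared with the quasi-likelihood test of edgeR with day as a block. Of 6588 genes, 5 passed a Benjamini-Hochberg adjusted p of 0.05 (0.0759%). Higher in diabetic wounds were Ngp, Chil3, Klhl6 and Prnp, and lower was Fosb. Ngp had served to choose the cells, so its value here (log2 3.34 ± 0.46 SE) is a description. The count depended on single days, with 69 genes called without day 1, 14 without day 3 and 11 without day 5, and on the test, since DESeq2 called only Fosb.

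Chil3, a secreted lectin of myeloid cells, was at 735, 746, 53.4 and 181 CPM in diabetic and 156, 15.8, 21.9 and 52.6 CPM in control libraries on days 1, 3, 5 and 7. It was higher in the diabetic library on 4 of 4 days, although the ranges of the treatments overlapped. The log2 difference was 2.83 ± 0.40 (SE; edgeR adjusted p = 0.00096). It was called without each day in turn, with log2 values of 1.96 to 3.49. In cells with no Ngp UMI it was 2.20 and not called (edgeR adjusted p = 0.115), and DESeq2 did not call it either (adjusted p = 0.130). It was also not called with each cell thinned to 1000 UMIs (log2 2.20, edgeR adjusted p = 0.168) or with no day block (log2 2.45, adjusted p = 0.999). The study lists Chil3 among the markers of a monocyte cluster, and the part of free monocyte transcripts in these levels was not tested.

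Klhl6, a ubiquitin ligase adaptor of lymphoid and myeloid cells, was at 61.1, 49.4, 15.3 and 21.0 CPM in diabetic and 14.9, 3.15, 0 and 15.0 CPM in control libraries. Every diabetic library lay above every control library, but diabetic day 5 and control day 7 were only 15.3 and 15.0 CPM. The granule-high cells of these libraries held 1442385 and 531978 UMIs of all genes, and those of control day 5 held 137111. These levels of Klhl6 therefore rest on few transcripts. The log2 difference was 2.06 ± 0.40 (edgeR adjusted p = 0.0425), and it was not called without day 1 or without day 3 (adjusted p of 0.071 and 0.075). The call was also lost with Ngp-positive cells left out, with thinned cells and with no day block (edgeR adjusted p of 0.231, 0.168 and 0.999). The log2 difference of Klhl6 was 1.61 to 2.45 over the 13 alternatives that tested it.

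Prnp, which encodes the prion protein, was at 130, 241, 52.0 and 120 CPM in diabetic and 43.5, 25.2, 80.2 and 41.4 CPM in control libraries. It was higher in diabetic wounds on 3 of 4 days, with day 5 the other way round. The log2 difference was 1.66 ± 0.33 (edgeR adjusted p = 0.0425), and it was not called without day 3 or without day 7 (adjusted p of 0.056 and 0.284). The call was also lost with Ngp-positive cells left out, with thinned cells and with no day block (edgeR adjusted p of 0.118, 0.0782 and 0.999) and by DESeq2 (adjusted p = 0.0946). The log2 difference of Prnp was 1.14 to 1.99 over 14 alternatives.

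Fosb, an immediate early gene whose protein is part of AP-1, was at 178, 286, 299 and 307 CPM in diabetic and 299, 806, 810 and 763 CPM in control libraries. It was lower in the diabetic library on 4 of 4 days, and only control day 1 lay in the diabetic range. Fosb fell by 1.23 ± 0.20 on the log2 scale (edgeR adjusted p = 0.0038), and it was not called without day 7 (adjusted p = 0.132) or with no day block (adjusted p = 0.999). Over 14 alternatives Fosb had a log2 difference of -1.34 to -1.06. It was also the only gene called in granule-low cells, where it fell by 1.01 ± 0.17 (edgeR adjusted p = 0.0247; 1 of 6486 genes, 0.0154%). There it was not called without day 3, 5 or 7 (edgeR adjusted p of 0.0763, 0.105 and 0.169), and 62 genes were called without day 1. Its log2 difference in granule-low cells was -1.06 to -0.94 over 4 alternatives. The next smallest p-values in granule-low cells were those of Saa3 (log2 1.89), Man1b1 (-1.11), Fos (-0.89) and 3110043O21Rik (1.32), with edgeR adjusted p of 0.0812 to 0.131. The difference between the classes was -0.21 ± 0.14 (edgeR adjusted p = 1.00). Among 8 genes of the stress of tissue dissociation (heat-shock genes, Jun and Jund), 7 were lower in diabetic granule-high cells, with a list median of -0.24 and 0 called; their part in the Fosb result was not tested.

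**Figure D4:**
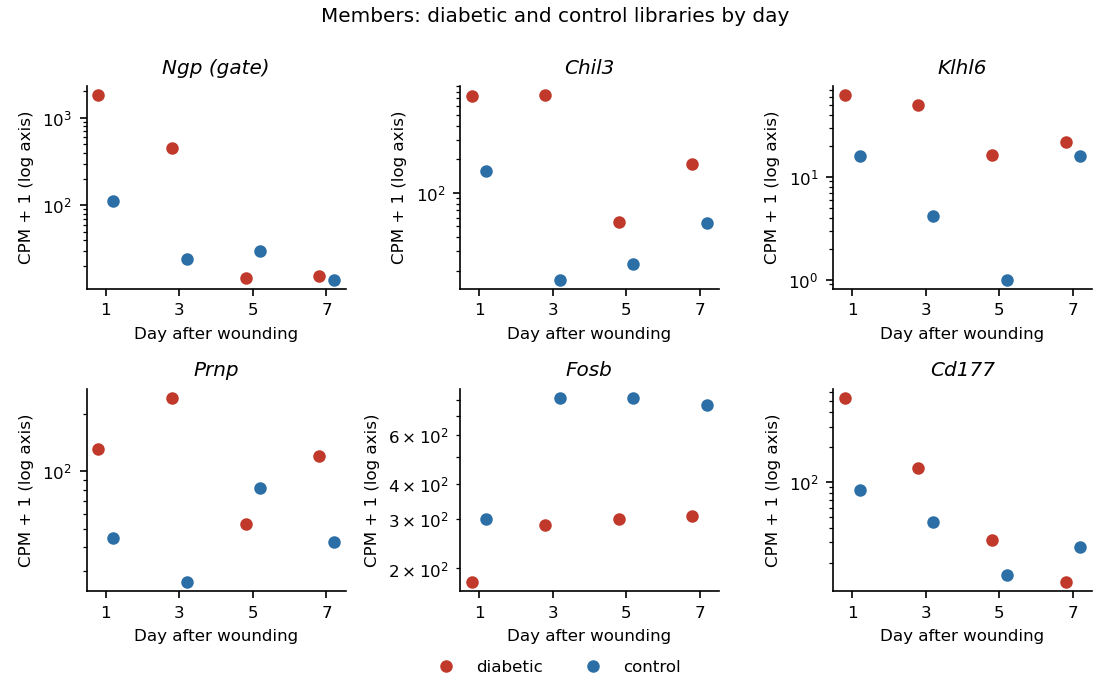
Level (CPM + 1, log axis) of the 5 genes called between diabetic (red) and control (blue) granule-high cells, and of Cd177, by day after wounding; each point is 1 library and has no error bar, and Ngp is a gate gene. Chil3 and Klhl6 are higher and Fosb is lower in the diabetic library on all 4 days.

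The other markers did not pass. Cd177 had a log2 difference of 1.56 ± 0.34 (edgeR adjusted p = 0.0817), and over 14 alternatives it was called in 5, with log2 values from 0.20 with Ngp-positive cells left out to 1.95 without day 7 and adjusted p from 0.00016 to 0.999. The other 2 outside the gate were Wfdc21, with a log2 difference of 0.58 ± 0.21 (adjusted p = 0.377), and Retnlg, with 0.48 ± 0.23 (adjusted p = 0.605). By list, 1 of 14 secondary granule genes was called (Chil3), against 0.0759% of all genes tested, 8 were positive and the median was 0.08, against 0.01 over all genes. Of 16 alarmin, stefin and small secreted genes 13 were positive with a median of 0.48 and 0 called, Stfa3 and Stfa1, protease inhibitors of the stefin family, coming nearest (log2 2.37 and 1.26; edgeR adjusted p of 0.060 and 0.065). Of 16 cytokine and chemokine genes 12 were positive with a median of 0.30 and 0 called. Il1a had a log2 difference of 1.40 ± 0.37 (edgeR adjusted p = 0.208) and Tnf of 1.09 ± 0.31 (adjusted p = 0.236). The NADPH oxidase (5 of 7 positive, median 0.09), glucose and hypoxia (7 of 20, -0.12) and cell cycle (4 of 10, -0.12) lists had 0 called. Of the dendritic cell markers 8 of 8 were positive (median 0.52) and of the monocyte and macrophage markers 2 of 13 (-0.28), with 0 called.

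The gate genes can be tested only where they did not choose the cells, so all gated neutrophils were also compared, a fit added after the data had been seen. Of 8796 genes, 24 passed the edgeR threshold (0.273%), 19 higher and 5 lower in diabetic wounds. Ngp was at 1420, 265, 10.0 and 11.3 CPM in diabetic and 83.4, 8.53, 13.8 and 6.93 CPM in control libraries. It was higher on 3 of 4 days by log2 3.76 ± 0.40 (edgeR adjusted p = 1.02e-06). The levels of days 5 and 7 and of control day 3 lie at the background given above, so the size of the fold is uncertain. The share of control day 1 lay above that background at full depth, with overlapping intervals after thinning. Lcn2 was at 5402, 1818, 1826 and 2460 CPM in diabetic and 3083, 746, 1336 and 1199 CPM in control libraries. It was higher on 4 of 4 days by log2 0.94 ± 0.20 (edgeR adjusted p = 0.0193), but not called without day 3 or day 7 (edgeR adjusted p of 0.268 and 0.393). Its log2 difference was 0.84 to 1.03 with each day left out in turn. Lcn2 of T cells was also higher in the diabetic library on every day, and the part of this background was not tested. Mmp8 was not called (log2 0.77 ± 0.25, adjusted p = 0.227), and was called without day 5 (log2 1.16, adjusted p = 0.0395).

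Other genes that rose in all diabetic neutrophils were Chil3 (log2 2.58 ± 0.36) and Cd177 (1.75 ± 0.26). Genes of secreted or cytosolic proteins were Saa3, an acute phase protein (1.73 ± 0.33), and Olfm4, a granule protein of a subset of neutrophils (1.10 ± 0.24). The stefin genes Stfa3, Stfa1, BC100530 and Gm5483 rose too (0.95 to 2.08). Of all these genes, Stfa3 and BC100530 were higher on 3 of 4 days and the others on 4 of 4. Of the 16 alarmin, stefin and small secreted genes, a list chosen with earlier results known, 5 were called, all higher, against 0.273% of all genes tested. Higher in the diabetic library on all 4 days were also Gbp5, a guanylate-binding protein (2.12 ± 0.41), Klhl6, Prnp, Ikbke, Dstn, Icosl, Tnip1 and Mrgpra2b. Lower on every day were Col1a2, a collagen gene of fibroblasts (-1.89 ± 0.38), Lpl (-1.48 ± 0.28), Fosb (-1.14 ± 0.18) and Man1b1 (-1.10 ± 0.20). Igha (-4.46) and S1pr4 (2.49) were called too, and did not keep their direction on every day. Many of these calls rested on single days. Of the genes called, Ngp, Chil3 and Fosb were called with each of the 4 days left out in turn, Cd177, Stfa1, Gbp5, Klhl6, Prnp and Dstn in 3 of the 4 fits, and Saa3, Stfa3, BC100530, Gm5483, Icosl, Lpl, Man1b1 and S1pr4 in 2. Olfm4, Col1a2, Tnip1, Ikbke and Mrgpra2b were called in 1 of the 4, and Igha in both fits that tested it. Without day 1 the count was 129 and without day 3 it was 12. Keratinocyte and fibroblast markers together were at 11.8 to 558 CPM in granule-high cells and highest on day 7 of both treatments; their part in the Col1a2 result was not tested.

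The diabetic effect was compared between granule-high and granule-low cells as an interaction in edgeR over both classes of the 8 libraries. The gate genes Ngp and Lcn2 were themselves higher in diabetic neutrophils (log2 3.76 and 0.94), so the split depended on the change under test. On day 1, 33.9% of granule-high cells had an Ngp UMI in the diabetic and 10.5% in the control library. The calls therefore describe the classes as gated and do not show that diabetes acted differently on them. Of 7118 genes, 9 passed (0.126%). The diabetic effect was higher in granule-high cells for Chil3 (log2 1.27 ± 0.24), Cd177 (1.55), Arid3a, a DNA-binding protein (1.56), Ifitm6 (0.79), Pglyrp1, a peptidoglycan-binding granule protein (0.77), Wfdc21 (0.69) and Retnlg (0.45). It was lower for Il18 (-1.68) and the predicted gene Gm10800 (-2.94), both of at most 87 UMIs in any class of a library.

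Several of these differences came from days 1 and 3. Wfdc21 and Retnlg had lower log2 ratios of granule-high to granule-low cells in the diabetic than in the control library on days 5 and 7. The ratios were 0.98 against 1.34 and 0.74 against 0.78 for Wfdc21, and 0.72 against 1.55 and 0.62 against 1.04 for Retnlg. Those of Cd177 were 0.27 against 0.57 and -0.67 against 1.36. They rest on few UMIs in granule-high and granule-low cells and give no direction. Cd177 had 2 and 1 on control day 5, 14 and 2 on control day 7, and 6 and 6 on diabetic day 7. Chil3 kept its direction on every day, although control day 5 held only 3 and 4 Chil3 UMIs in granule-high and granule-low cells. On diabetic days 1, 3, 5 and 7 it was at 735, 746, 53.4 and 181 CPM in granule-high and 266, 266, 33.9 and 165 CPM in granule-low cells. In control libraries the classes were near each other, at 156, 15.8, 21.9 and 52.6 CPM against 169, 14.6, 26.2 and 64.9 CPM. Ifitm6 on diabetic days 1 and 3 was at 1479 and 739 CPM in granule-high and 307 and 223 CPM in granule-low cells, against 439 and 654 CPM and 264 and 365 CPM in controls, while on day 5 the log2 ratio was lower in the diabetic library (0.25 against 1.06). Pglyrp1 on diabetic days 1 and 3 was at 935 and 714 CPM in granule-high and 243 and 342 CPM in granule-low cells, against 547 and 588 CPM and 294 and 455 CPM in controls. All 9 calls were lost without day 1, without day 3 or with the Ngp-positive cells left out of the granule-high class alone (0 called each time). In those fits 220, 261 and 254 genes had an unadjusted p under 0.05. Over 7 alternatives the log2 difference stayed at 1.19 to 1.71 for Arid3a, -2.11 to -1.46 for Il18 and -3.34 to -2.52 for Gm10800. It went down to 0.35 for Chil3, 0.03 for Ifitm6, 0.42 for Pglyrp1, 0.29 for Wfdc21, 0.08 for Retnlg and -0.11 for Cd177. The median granule rate of the cells was also higher in diabetic libraries, at 50.8 against 38.2 on day 1 and 30.3 against 20.8 on day 3, and its part in these differences was not tested.

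**Figure D5:**
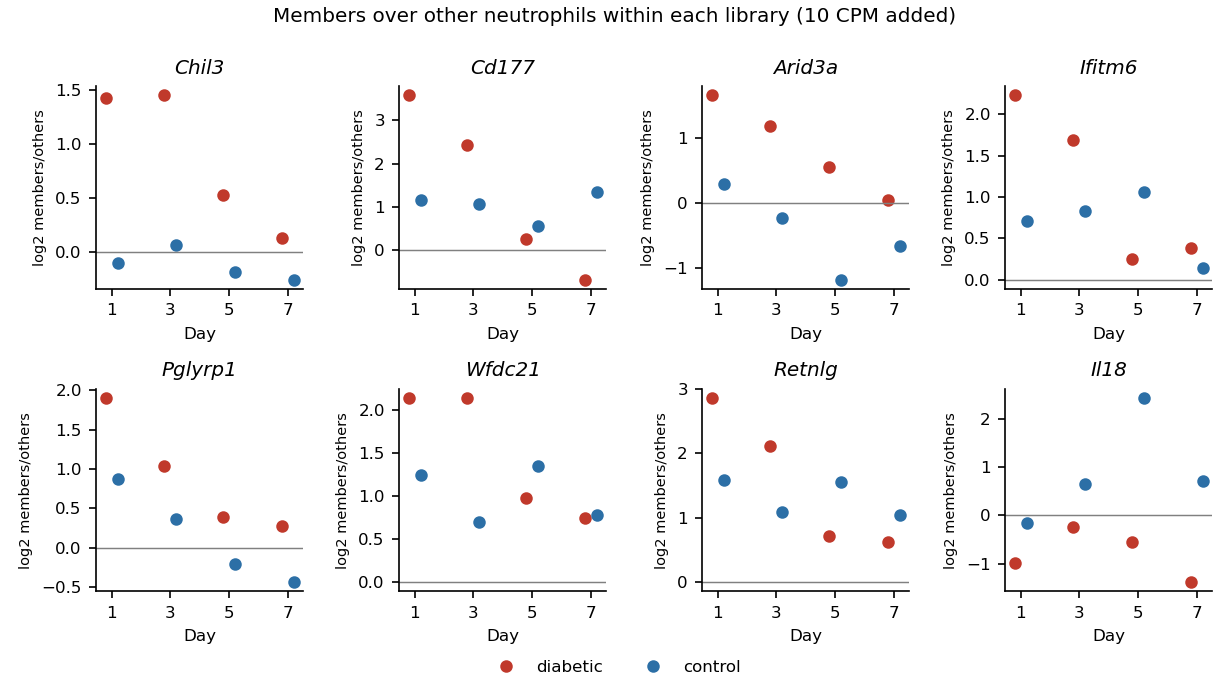
Log2 ratio of granule-high to granule-low cells ("members/others", with 10 CPM added) within each library, by day after wounding, for 8 of the 9 genes with a called difference of the diabetic effect; diabetic libraries are red, control libraries are blue, and points have no error bar. The diabetic ratio of Chil3, Arid3a and Pglyrp1 is above the control ratio on all 4 days, whereas Wfdc21 and Retnlg are above it on days 1 and 3.

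The last comparison followed granule-high cells from day 1 to day 3, when they were most numerous, with treatment as a block. Of 7120 genes 27 passed in edgeR (0.379%), 16 higher and 11 lower on day 3, over 4 libraries. Lower on day 3, outside the gate, were Itgb2l, an integrin beta chain of neutrophils (log2 -2.79 ± 0.45), Ggt1 (-2.74 ± 0.48), Vcan (-1.97 ± 0.34), the chemokine Cxcl3 (-1.96 ± 0.34), Csf3, which encodes G-CSF (-1.90 ± 0.27), Cd177 (-1.85 ± 0.32), Cxcl10 (-1.63 ± 0.29), Thbs1 (-1.60 ± 0.28), Anxa3 (-1.58 ± 0.28) and Ly6c2 (-1.43 ± 0.26). Csf3 was at 203 and 66.2 CPM on diabetic days 1 and 3 and at 208 and 70.4 CPM on control days 1 and 3. Thbs1, thrombospondin 1, was at 7696 and 3478 CPM in diabetic and 14454 and 5409 CPM in control libraries. Both were lower on day 3 in each treatment. Ngp, a gate gene, went from 1811 to 456 CPM and from 112 to 23.1 CPM.

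Among the genes higher on day 3 were several known from other cells. Igkc, an immunoglobulin light chain, was at 1.20 and 80.6 CPM on diabetic and 0.61 and 78.8 CPM on control days 1 and 3 (log2 6.07 ± 0.46). Ctsk, the protease cathepsin K (3.95 ± 0.50), Apoe (2.97 ± 0.28), Trem2 (2.63 ± 0.36), C1qb (2.10 ± 0.36) and C1qc (2.09 ± 0.35) are macrophage genes, and H2-Aa, H2-Ab1 and H2-Eb1 (1.53 to 1.84) present antigen on dendritic cells and macrophages. The heat-shock genes Hsph1 (3.06 ± 0.47), Hspa1a (2.27 ± 0.30) and Hspa1b (2.15 ± 0.30) rose too, and so did Eprs, Jmy and Gdf15. C1qa, which the gate limited, was also called.

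Several lists of markers of other cells were higher on day 3, and others were not. The 14 monocyte and macrophage markers together were at 1355 and 2793 CPM on diabetic days 1 and 3 and at 1351 and 2170 CPM on control days 1 and 3, and granule-low cells had 1756, 2965, 1547 and 2284 CPM. The 9 dendritic cell markers were at 985 and 3283 CPM and at 703 and 3150 CPM. The keratinocyte and fibroblast markers were at 25.3 and 12.4 CPM and at 27.4 and 26.3 CPM, and erythroid and platelet markers (87.9 and 182 CPM, 191 and 90.3 CPM) and T and NK cell markers (37.0 and 31.1 CPM, 24.9 and 97.7 CPM) went opposite ways in the 2 treatments. Against 0.379% of all genes tested, 3 of 13 monocyte and macrophage markers were called higher and 2 lower, of the dendritic markers 3 of 8 higher, of the stress genes 3 of 8 higher, and of the cytokine and chemokine genes 2 of 16 lower (median -1.01). The part of other cells and of tissue dissociation in the day 3 result was not tested. Only Igkc and Apoe were called when treatment was not a block or when Ngp-positive cells were left out. Among the lost calls, log2 changes are given over 8 tested alternatives and the untested change within each treatment with 10 CPM added. They were 2.04 to 2.53 for Hspa1a, 1.74 to 2.30 for H2-Aa and -1.99 to -1.44 for Csf3. They ranged more widely for Ctsk (1.09 to 4.61) and Cd177 (-2.05 to -0.80). With RLE size factors 84 genes were called, 30 higher and 54 lower, so the split between directions also changed with the scaling.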

How the data were processed

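The authors deposited 1 table of raw UMI counts for each library (21742 genes and 13 mitochondrial genes, with no normalization). In the methods of the study, cells were captured on BD Rhapsody, reads were trimmed with fastp (0.20.1 in the submitters' processing notes), UMIs were extracted with UMI-tools, and reads were aligned with STAR to mouse Ensembl release 92. The labels name other chemistry and another build, so coordinates here come from GRCm38 annotation only. Libraries held 19236522 to 33842509 UMIs. Intervals on shares cover counting error only.

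Cells were gated by the fixed counts given in the report. Counts were summed per library and class and tested with edgeR 4.0.16 (TMM, filterByExpr, quasi-likelihood test, Benjamini-Hochberg adjustment; R 4.3.3) with day, or treatment, as a block, using libraries with at least 20 cells. The interaction fit used both classes of the 8 libraries, and classes of 1 library are not independent samples. With 1 pooled library for each treatment and day and day as a block, p-values measure how far the diabetic effect varied between days, not between animals. Those of day 3 against day 1 measure how far the change differed between the treatments, with 1 residual degree of freedom from 4 libraries. DESeq2 1.42.0, other size factors, filters and gates, and leaving out each day were alternatives. Python 3.11.15 with numpy 2.4.6, scipy 1.17.1 and pandas 2.3.3 did the rest. Scrublet (through scanpy 1.11.5) called 68 of 35158 cells as doublets. Whether it found most of the doublets was not tested, so called doublets were kept in the main fits and removed in an alternative. Barcodes were renamed serially in the tables, so barcodes shared between libraries could not be counted.

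The cells and the gene lists were chosen with earlier results of these data known. Genes named are the 10 in each direction with the largest change among those called that kept their direction in every pair of libraries, the 5 smallest p-values where fewer than 5 passed, the markers, and examples from the lists; others are named where a count called for it. A further gene that met this rule was left out of the text. The fits were also run on simulated data with changes of log2 2. That of diabetic against control granule-high cells recovered 200 of 200 genes with 15 false calls. The fit of day 3 against day 1 recovered 195 with 12, and the interaction 185 with 9. The simulated counts had a fixed dispersion, no effect of day and no pairing of classes, and only genes at or above the median count were changed. Recovery and false calls in the real libraries, which differ by day, are therefore not measured by it.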

Additional observations from a re-analysis of the deposited data

Results flagged for a closer look

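The diabetic effect differed between granule-high and granule-low cells for 9 genes by the interaction test of edgeR, which flagged them. The classes were split by genes that themselves differed between treatments, so these calls describe the classes as gated. The log2 difference of the effects was 1.56 for Arid3a, 1.55 for Cd177, 1.27 for Chil3, 0.794 for Ifitm6, 0.774 for Pglyrp1, 0.692 for Wfdc21 and 0.453 for Retnlg, each with the higher effect in granule-high cells. It was -1.68 for Il18 and -2.94 for Gm10800. None of the 9 was called without day 1, without day 3 or without the Ngp-positive cells of the granule-high class. Over 7 alternatives the difference stayed at 1.19 to 1.71 for Arid3a, -2.11 to -1.46 for Il18 and -3.34 to -2.52 for Gm10800. It went down to 0.35 for Chil3, 0.03 for Ifitm6, 0.42 for Pglyrp1, 0.29 for Wfdc21, 0.08 for Retnlg and -0.11 for Cd177. Groups of 1 library allowed no search for outlying samples.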

How the results depend on the processing

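Libraries were paired by day, and the day block was part of the fits. Between diabetic and control granule-high cells 5 genes were called in edgeR; 1 was called by DESeq2, 34 with no filter on low counts, 0 with no day block (210 at an unadjusted p under 0.05), 1 with Ngp-positive cells left out, 2 with each cell thinned to 1000 UMIs, and 5 to 69 with a day left out. In all neutrophils 24 were called and 12 to 129 with a day left out, in granule-low cells 1 and 0 to 62. The interaction gave 9 calls and 0 to 13 with a day left out. With Ngp-positive cells left out of the granule-high class alone it gave 0, and the difference for Cd177 changed sign to -0.11. From day 1 to day 3, 27 genes were called; 69 were called by DESeq2, 84 with RLE size factors, 270 with no filter, 2 with no treatment block, 179 with the gate at 20, 313 in cells with at least 500 genes, 44 with called doublets removed and 2 with Ngp-positive cells left out. The causes were not tested. Alternatives with Ngp-positive cells left out, thinning or a stricter mitochondrial limit, and the fits of all neutrophils, were chosen after seeing the data. The share of neutrophils that were granule-high kept its mean direction in every alternative, but not the direction of each day. On days 5 and 7, Ngp had 4 to 29 UMIs in the neutrophils of a library.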

Other observations

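The gate left out many cells of similar content. Of 13808 cells with the S100a8 and S100a9 rate of a neutrophil, 4938 had no Csf3r UMI, and 3515 cells outside the neutrophil gate reached the granule rate of 10, with 52 to 897 in a library. Values of granule-high neutrophils therefore describe the cells that passed, not all neutrophils of the wounds.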
